A study of Taeniopygia guttata with 8 samples.

Results

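H3K27ac was compared between Area X and RA, 2 song nuclei of the zebra finch brain, in birds that had not sung. The comparison uses the 3 Area X silent and the 3 RA silent libraries of a deposited count table, 6 of its 14 libraries, over all 35958 listed genomic regions. No region was selected beforehand, and 35954 had enough reads to be tested. Acetylation of histone H3 at lysine 27, abbreviated H3K27ac, marks promoters and enhancers in use, and wide stretches of it often lie over genes that define a cell type. Area X is a striatal nucleus that is needed for song learning and song variability, and RA, the robust nucleus of the arcopallium, is the pallial nucleus that sends the song motor command to the brainstem.

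The birds were adult males kept alone in sound attenuated chambers and taken after light onset and 1-2 hours of silence, or of singing for the other 4 Area X and 4 RA libraries. The labels give 18 birds and 3 pools of 6 birds per behaviour, so a library stands for a pool and not for a bird, and the same birds may have given Area X and RA tissue. The nuclei were dissected from sections of 400 µm, although the source is labelled as laser captured tissue. Chromatin fixed with 1% formaldehyde was precipitated with an H3K27ac antibody of which 2 lots are listed, without saying which library used which lot. Each numbered library was treated as its own pool. The table holds 4 singing libraries per nucleus, more than the 3 pools the labels give, so some singing libraries may share a pool, and which do is not stated. To that extent the spread behind the p-values, which includes the singing libraries, is technical and the p-values are too small. In bulk tissue, more acetylation per cell and more cells of an acetylated type cannot be told apart. Positions are on a build not given in the sources used here. Regions therefore carry no gene names, and the nuclei could not be checked against marker genes.

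Reads in regions numbered 4.64 M, 6.73 M and 10.6 M (M, 1e6 reads) in Area X silent libraries 1, 2 and 3, and 5.41 M, 4.33 M and 9.48 M in RA silent libraries 1, 2 and 3. The median region held 62, 75 and 114 reads in the Area X libraries and 76, 57 and 133 reads in the RA libraries. Levels are given as CPM, counts per 1e6 reads in regions after scaling by the trimmed mean of M values (TMM).

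One of the RA silent libraries stood closer to Area X than to its own nucleus. The library labelled RA silent 2 correlated with the 3 Area X silent libraries at Spearman coefficients of 0.88 to 0.946 across regions, and with RA silent libraries 1 and 3 at 0.788 and 0.8. The Area X silent libraries correlated among themselves at 0.906 to 0.969, and RA silent libraries 1 and 3 at 0.917. RA silent libraries 1 and 3 correlated with the Area X silent libraries at only 0.536 to 0.764. On a scale that runs to 1 at the average of the Area X silent libraries and starts at 0 for the average of RA silent libraries 1 and 3, Area X silent libraries 1, 2 and 3 lay at 0.73, 1.11 and 1.16, and RA silent libraries 1, 2 and 3 at -0.01, 0.64 and 0.01. All silent libraries except the one labelled RA silent 2 set the ends of this scale, so its position is not fully comparable with theirs. On this scale the library labelled RA silent 2 lay next to Area X silent library 1, the Area X library nearest to RA. Whether it holds tissue from outside RA or carries a wrong label was not tested, and every RA silent mean below includes it unless stated. Among the singing libraries, RA singing library 4, the shallowest with 0.203 M reads in regions, stood likewise. It correlated at 0.78 to 0.823 with the 7 Area X libraries and at 0.654 to 0.721 with RA silent libraries 1 and 3 and RA singing libraries 1 to 3. Other singing libraries were not all clearly apart by nucleus either. RA singing libraries 2 and 3 correlated with Area X silent library 1 at 0.803 and 0.792, and with each other at 0.786. With RA silent library 3 they correlated at 0.787 and 0.835, so RA singing library 3 was nearer to that RA library. Area X singing library 1 correlated at 0.827 with both RA singing library 1 and Area X singing library 4. It correlated at 0.934 with Area X singing library 2 and at 0.951 with Area X silent library 1. The biological coefficient of variation, the fitted spread between libraries of one group, was 0.294 for Area X silent alone and 0.448 for RA silent alone. Results are given with and without the library labelled RA silent 2.

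**Figure D1:**
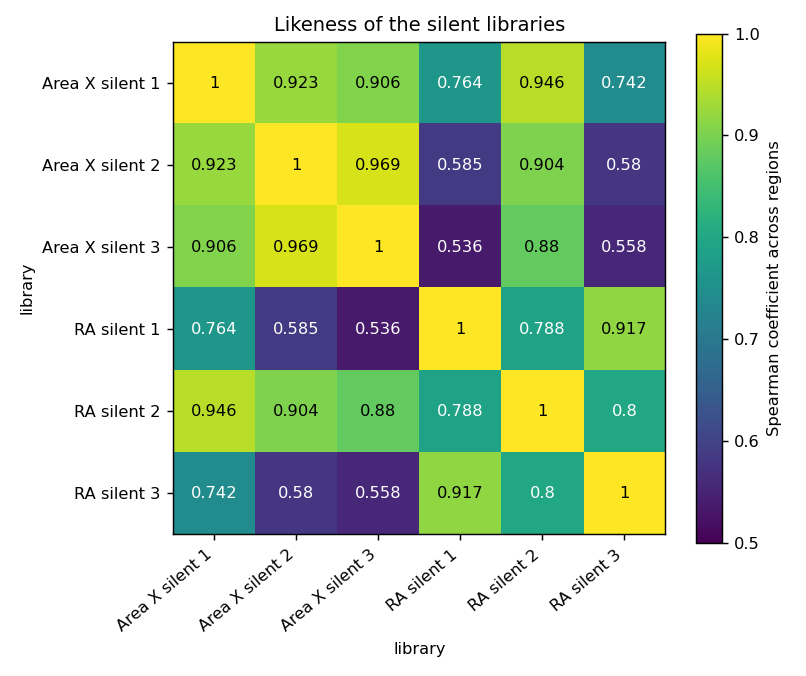
Spearman coefficient of log2 CPM across regions for each pair of the 6 silent libraries, with libraries on both axes and the coefficient as colour and number. The library labelled RA silent 2 reads 0.88 to 0.946 with the Area X libraries and 0.788 and 0.8 with the other RA libraries.

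In silent birds, 7135 of 35954 regions (19.8%) differed between the nuclei. Area X had the higher level in 3721 (10.3%) and RA in 3414 (9.5%), by edgeR's quasi-likelihood test with Benjamini-Hochberg adjusted p under 0.05 in a fit to all 14 libraries. Called regions differed by a median of 3.12-fold toward Area X (range 1.65 to 33.3) and 2.87-fold toward RA (range 1.65 to 25.6). Differences of at least 2-fold made up 3535 of the calls toward Area X (9.83% of tested regions) and 3308 of those toward RA (9.2%). Differences of at least 4-fold made up 769 calls toward Area X (2.14%) and 493 toward RA (1.37%). Every Area X library lay on one side of every RA library, without overlap of CPM, in 7739 regions where Area X was higher (21.5%) and 7892 where RA was higher (22.0%), of which 3423 and 3127 were called.

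**Figure D2:**
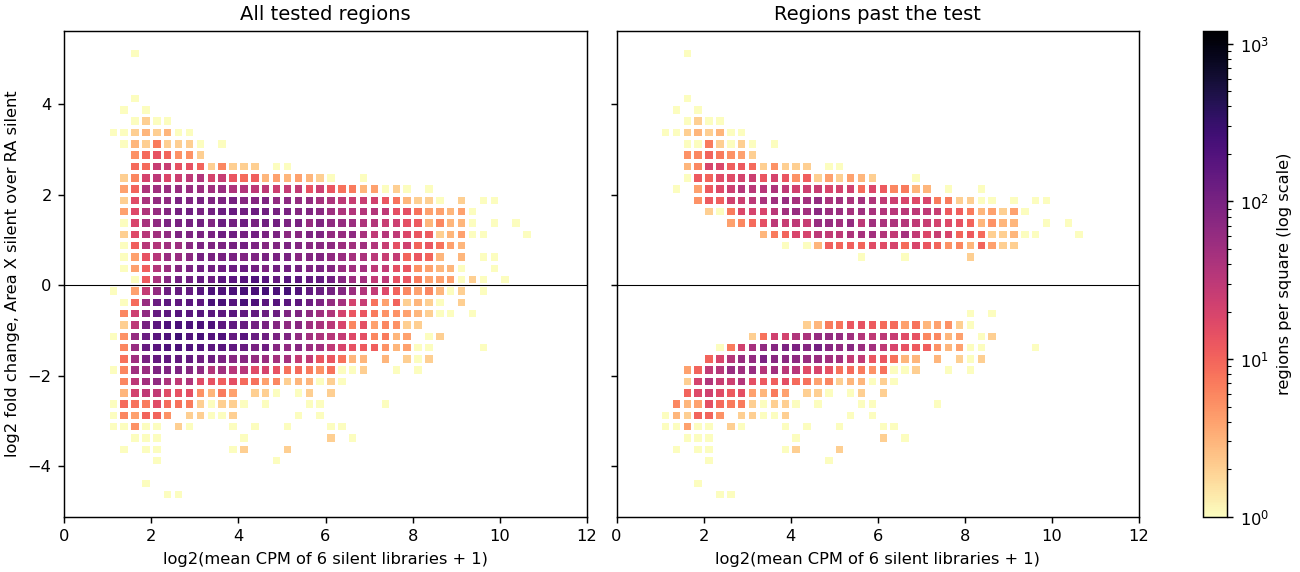
Log2 fold change of Area X silent over RA silent on the vertical axis against log2 of the mean CPM of the 6 silent libraries plus 1 on the horizontal axis, for all tested regions on the left and for those past the test on the right. Colour gives the number of regions per square on a log scale, and the 3721 calls above 0 reach further to the right than the 3414 below 0.

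The number of calls rested on single libraries. Leaving out any 1 library called none of the 7135 regions in the opposite direction. These fits share their remaining libraries, and some left few or no calls, so this outcome was close to fixed in advance. Without the library labelled RA silent 2, 14521 of 35958 regions (40.4%) passed, 8544 of them toward Area X (23.8%) and 5977 toward RA (16.6%). These included 3707 of the 3721 regions called toward Area X and 3407 of the 3414 called toward RA with all libraries. The library labelled RA silent 2 lies toward Area X in these same data, so leaving it out widens most called differences. The counts and folds without it are therefore no independent support. With the 6 silent libraries alone in the fit, no region passed (15180 at unadjusted p under 0.05, lowest adjusted p 0.0791), whereas DESeq2 on all libraries called 5278 in each direction. The silent libraries without the one labelled RA silent 2, fitted alone, gave 10132 calls toward Area X and 7813 toward RA. Leaving out RA silent library 1 left 10 calls and RA silent library 3 left 3, all toward RA, and leaving out Area X silent library 2 or 3 left 0. Without Area X silent library 1 there were 11042. Among the singing libraries, which enter through the estimate of the spread, leaving out RA singing library 3 gave 4135 calls, Area X singing library 2 gave 3593 and Area X singing library 4 gave 3963. Without RA singing library 2, calls toward Area X numbered 2434.

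The split between the directions changed with the scaling, with the regions tested and with single libraries. Calls toward Area X and toward RA numbered 1679 and 2401 with DESeq2 size factors and 1911 and 4815 with total reads as scaling. The share of calls that pointed to Area X was thus 41.2% and 28.4%, against 52.2% with TMM over all regions. With TMM kept, the share was 40.1% without RA singing library 3 and 58.6% without RA singing library 1. These libraries are part of neither silent mean. The 41.2% lies within that range, so it cannot be credited to the scaling. With only regions of at least the median CPM tested, and TMM recomputed on them, calls numbered 1354 and 2636, a share of 33.9%, and the parts of the filter and of the scaling were not separated. The median region had a log2 fold change of -0.39 with total-read scaling, against -0.10 with TMM, and folds are given with TMM.

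The library labelled RA silent 2 lay between the others in most called regions. In 3306 of the 3721 regions called toward Area X (88.8%) its CPM was above both other RA libraries and below all Area X libraries. In the same way it lay between them in 2764 of the 3414 regions called toward RA (81.0%). It lay within or beyond the Area X range in 298 regions called toward Area X and 283 called toward RA. It was at or within the range of RA silent libraries 1 and 3 in 118 and 367. The share over all tested regions is not given here. The calls were made on these same libraries, and this library lay at 0.64 on the scale above. Its place between the others is therefore no result particular to the called regions.

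Among regions of at least median level, the largest differences toward RA came from a pair of loci. Of the 10 largest folds toward RA among regions of at least median level whose CPM did not overlap, 6 lay near 16.3 Mb of chromosome 10 and 4 near 14.1 Mb of chromosome Z. Their folds ran from 9.78 to 15.2, with edgeR adjusted p between 0.00315 and 0.0285. Over the 10 regions, CPM was 0.834 to 32.0 in the Area X silent libraries, 15.0 to 99.8 in the library labelled RA silent 2 and 19 to 271 in RA silent libraries 1 and 3.

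At chrZ:14136487-14137869, CPM was 5.27, 3.17 and 1.55 in Area X silent libraries 1 to 3, against 40.8, 28.9 and 78.8 in RA silent libraries 1 to 3. The choice of regions without overlap placed all RA libraries above all Area X libraries, and the one labelled RA silent 2 was lowest among them. The difference was 15.2-fold toward RA (log2 fold change of Area X over RA -3.93, SE 0.50, 95% interval -4.97 to -2.89, edgeR adjusted p = 0.00315). Its neighbour chrZ:14131699-14135561, a wider region, had 17.8, 7.58 and 8.82 CPM in Area X and 89.4, 78.0 and 201 in RA, a 10.8-fold difference with the same adjusted p. Here the library labelled RA silent 2 stood close to RA silent library 1.

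At chr10:16288688-16295073, a region of 6386 bp and the strongest of the 10 in RA, CPM was 32.0, 13.2 and 10.7 in Area X, against 173, 99.8 and 271 in RA. Area X silent library 1 was the highest Area X library, and the choice without overlap placed it below every RA library. The difference was 9.78-fold (log2 fold change -3.29 with an SE of 0.46, adjusted p = 0.00529 by edgeR). The next region of the locus differed as well. At chr10:16297965-16300877, CPM was 9.32, 3.88 and 2.38 in Area X and 64.7, 30.0 and 94.8 in RA, a 12.4-fold difference. At chr10:16311607-16313186 it was 4.05, 1.41 and 2.15 in Area X and 38.9, 15.7 and 39.6 in RA, a 12.5-fold difference. Of the 3 regions with the smallest p toward RA, 2 are the chromosome Z regions above. The third is chr10:16285569-16288101, with 9.52, 5.82 and 5.84 CPM in Area X and 62.3, 40.9 and 88.7 in RA (9.11-fold, edgeR adjusted p = 0.00315). Without the library labelled RA silent 2, the 10 largest folds toward RA ran from 11.5 to 17.9.

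The regions chosen in the same way toward Area X were scattered over the genome. The 10 lay on chromosomes 1 (3 regions), 3, 5, 8, 9 and 20 and on unplaced sequence (2 regions), at folds of 5.48 to 6.27 with edgeR adjusted p between 0.0285 and 0.0365. Over them, CPM was 14.6 to 94.0 in the Area X silent libraries, 8.39 to 20.5 in the library labelled RA silent 2 and 1.11 to 5.85 in RA silent libraries 1 and 3. In all 10 the library labelled RA silent 2 lay apart from both other RA libraries. That it lay below every Area X library was fixed by the choice of regions without overlap.

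At chr1:79084329-79087208, CPM was 34.8, 58.5 and 94.0 in Area X silent libraries 1 to 3, against 5.85, 20.5 and 4.22 in RA silent libraries 1 to 3. The library labelled RA silent 2 stood nearer to the lowest Area X library than to the other RA libraries. The difference was 6.27-fold toward Area X (log2 fold change 2.65, SE 0.71, 95% interval 1.16 to 4.14, edgeR adjusted p = 0.0314). It was 12.5-fold without that library. A second region in the same stretch, chr1:79079877-79082137, had 22.3, 50.0 and 73.8 CPM in Area X and 2.85, 18.1 and 4.42 in RA, a 5.92-fold difference. At chr5:2383510-2384144, the narrowest of the 10, CPM was 23.5, 44.1 and 38.6 in Area X and 2.85, 12.1 and 2.61 in RA, a 6.24-fold difference. At chr20:4621828-4623402 it was 20.3, 34.2 and 40.3 in Area X and 2.37, 12.8 and 2.71 in RA, a 5.48-fold difference. In each of these the Area X libraries were the 3 highest by the choice without overlap, with Area X silent library 1 the lowest among them. Without the library labelled RA silent 2, the folds of the 10 regions ran from 10.2 to 14.

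**Figure D3:**
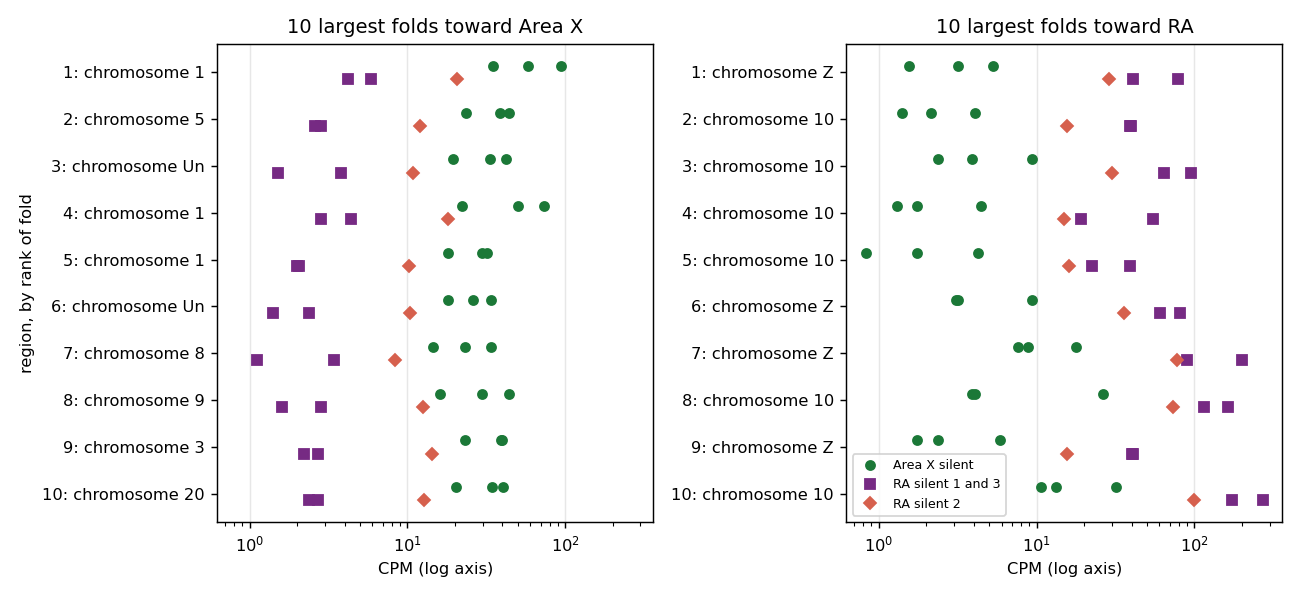
CPM on a log axis in each silent library for the 10 largest folds toward Area X (left) and toward RA (right), ordered by fold from the top. Area X silent libraries are green circles, RA silent libraries 1 and 3 purple squares and the library labelled RA silent 2 an orange diamond, which sits between the other RA libraries and the Area X libraries in all 10 regions of each panel. The choice of regions allowed no overlap between the nuclei, so the diamond had to lie on the RA side of the Area X libraries.

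In the 3 regions toward Area X with the smallest p, the library labelled RA silent 2 stood near the other RA libraries. A choice by smallest p favours regions where the libraries of a nucleus lie close together, so this is no result about that library. At chrUn:166076847-166078296, CPM was 35.4, 29.3 and 50.5 in Area X, against 10.4, 11.7 and 10.9 in RA. The difference was 3.48-fold (log2 fold change 1.80 with an SE of 0.31, adjusted p = 0.0238 by edgeR), and 3.64-fold without the library labelled RA silent 2. At chr2:48065596-48066649, CPM was 38.3, 39.5 and 53.1 in Area X and 13.1, 15.7 and 8.33 in RA (3.55-fold). At chr18:9251605-9253010, CPM was 50.6, 42.1 and 63.5 in Area X and 16, 16.8 and 10.2 in RA (3.65-fold).

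Broad, heavily acetylated domains differed in both directions. The strongest region called toward Area X without overlap of CPM was chr18:1502940-1533790, 30851 bp wide, with 1640, 2260 and 2280 CPM in Area X, against 794, 1380 and 866 in RA. Highest among the RA libraries was the one labelled RA silent 2, and the difference was 2.04-fold (log2 fold change 1.03, SE 0.27, edgeR adjusted p = 0.0311). It turned to a log2 fold change of -0.07 (adjusted p = 0.835) under a scaling that varies with the signal of a region. At chr2:26850722-26874974, CPM was 1260, 1900 and 2240 in Area X and 356, 1090 and 480 in RA (2.81-fold). At chr12:17578176-17600039 it was 864, 1540 and 1800 in Area X and 173, 827 and 184 in RA (3.55-fold). At chr5:37983307-38006140 it was 918, 1330 and 1550 in Area X and 254, 795 and 353 in RA (2.71-fold). In these 3 domains the library labelled RA silent 2 came close to Area X silent library 1. The calls at all 3 were lost under at least 1 other scaling or filter, at adjusted p of 0.0532 to 0.0729. With signal-dependent scaling the difference was 1.45-fold on chromosome 2, 2.01-fold on chromosome 12 and 1.44-fold on chromosome 5.

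The strongest and widest region called toward RA without overlap was chr4A:19956393-19986302, 29910 bp wide, with 535, 394 and 388 CPM in Area X, against 1200, 740 and 1360 in RA. The 3 Area X libraries were alike and, by the choice without overlap, stood below every RA library. The difference was 2.50-fold (log2 fold change -1.32 with an SE of 0.29, adjusted p = 0.0285 by edgeR). At chr7:9983495-10001739, CPM was 234, 135 and 135 in Area X and 579, 313 and 714 in RA (3.19-fold). On chromosome 18 a pair of neighbouring domains was higher in RA. At chr18:1062812-1079458, CPM was 294, 256 and 261 in Area X and 534, 409 and 709 in RA (2.04-fold). At chr18:1082718-1093203 it was 283, 311 and 338 in Area X and 476, 390 and 669 in RA (1.65-fold), a call that was lost with DESeq2 size factors (adjusted p = 0.053). With signal-dependent scaling the differences toward RA were larger, at 5.13-fold on chromosome 4A, 5.62-fold on chromosome 7 and 3.78-fold and 3.10-fold at the chromosome 18 pair.

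With TMM scaling, some of the strongest domains did not pass the test and had narrow intervals around equality. In 4572 regions (12.7%) the whole 95% interval of the fold lay within 2-fold of equality, and the 2 given here were chosen after their values were seen. At chr14:10761033-10790289, CPM was 977, 1110 and 1270 in Area X and 775, 927 and 1140 in RA (log2 fold change 0.24, 95% interval -0.28 to 0.76). At chr9:17437838-17450926 it was 712, 878 and 880 in Area X and 751, 791 and 894 in RA (log2 fold change 0.02, 95% interval -0.46 to 0.50). The groups overlapped in both. Signal-dependent scaling, a comparison added for these regions after seeing the data, moved both toward RA and past the test, to a log2 fold change of -0.86 at the chromosome 14 domain (edgeR adjusted p = 0.0365) and of -1.05 at the chromosome 9 domain (adjusted p = 0.0312). Under that scaling 4277 regions had such an interval, 2789 of them shared with TMM scaling. For the median region the interval reached 0.99 (log2) above and below its fold, so smaller differences were often not detectable with 3 libraries a group.

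No region was nearly absent from one nucleus when all libraries were counted. With nearly absent taken as under 1 CPM in every library of one nucleus and at least 5 CPM in every library of the other, there were 0 regions in either direction. Leaving out the library labelled RA silent 2 gave 90 regions nearly absent from RA, and 1 from Area X. In the 90 regions, on 17 chromosomes, that library read 1.1 to 17.9 CPM, with a median of 5.52. The mean of the 4 RA singing libraries had a median of 3.29 CPM there, with all 4 under 1 CPM in only 1 region. In RA singing library 4, with 0.203 M reads in regions, 1 read already exceeds 1 CPM. Both values therefore depend on its depth and cannot show whether these regions are acetylated in RA. Of the 90 regions, 31 were called toward Area X with all libraries, against 10.3% of all tested regions. The 90 were picked by their levels in these same libraries, so this count is no result about them. All of these regions were chosen after their values were seen. At chr3:67834688-67835704, the one with the highest mean CPM, values were 14.8, 39.6 and 34.9 in Area X and 0.474, 16.3 and 0.703 in RA. The 4 RA singing libraries read 4.41 to 19.2 CPM there. It did not pass the edgeR test with all libraries (adjusted p = 0.0578), nor in singing birds (1.77-fold, adjusted p = 0.445). The single region nearly absent from Area X, chr20:10025961-10026398, had 0.405, 0.176 and 0.119 CPM in Area X and 7.43, 1.99 and 5.22 in RA, which are 2, 1 and 1 reads against 47, 9 and 52.

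Neighbouring regions that were both called mostly shared their direction. Among 18675 pairs of neighbours at most 10000 bp apart, 1578 (8.45%) had both members called. Of these, 1536 (97.3%) were called in one direction and 42 in opposite directions. For comparison, 19.8% of all tested regions were called, 10.3% toward Area X and 9.5% toward RA. Whether neighbours are separate elements or parts of one acetylated stretch was not tested. The shared direction and the runs below therefore do not show that separate elements differ together. Runs, defined as 5 or more regions in a row with the same call, numbered 26 toward Area X, with 147 regions on 21 chromosomes or unplaced sequences, and 24 toward RA, with 152 regions on 16. They held 3.95% of all calls toward Area X and 4.45% of those toward RA. The number of runs depended on the scaling, with 7 toward Area X and 13 toward RA under DESeq2 size factors, 9 and 53 under total reads, and 5 and 23 under signal-dependent scaling. It depended on single libraries too. There were 162 toward Area X and 82 toward RA without the library labelled RA silent 2, and 53 and 59 without Area X silent 1. No run was left in either direction without RA silent 1 or 3 or Area X silent 2 or 3, or with the silent libraries alone in the fit. Runs toward Area X numbered 9, 7 and 8 without Area X singing 1, 2 and 4, and 44, 8 and 4 without RA singing 1, 2 and 3. Runs toward RA numbered 11 and 13 without Area X singing 2 and 4, and 15 without RA singing 3.

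The longest runs toward RA were the loci of the largest folds. The run chrZ:14098145-14144416 held 14 regions with a summed CPM of 202, 93.0 and 108 in Area X silent libraries 1 to 3, against 796, 545 and 1390 in RA silent libraries 1 to 3. Every RA library was above every Area X library, and the ratio of the means was 6.80 toward RA. The run chr10:16273997-16314220 held 13 regions with 109, 48.8 and 45.3 in Area X and 523, 320 and 847 in RA, a ratio of 8.33. Of the 9 regions beside this run, 6 were also called toward RA, against 9.5% of all tested regions. They include the 5 regions of another run toward RA, chr10:16255984-16272559, set apart by a narrow region that was not called. The locus therefore enters the count of runs more than once. Beside the chromosome Z run lay 1 region, which was not called. In the window from 16 to 17 Mb of chromosome 10, 25 of 38 regions were called toward RA and 0 toward Area X. The next longest run toward RA, chr17:6124977-6164499 with 8 regions, had 408, 287 and 344 in Area X and 1060, 723 and 1480 in RA, a ratio of 3.15.

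Runs toward Area X held at most 8 regions, against at most 14 toward RA, while the longest span was 54812 bp toward Area X and 46272 bp toward RA. Ratios of the summed means were 2.12 to 3.96 toward Area X, with a median of 2.97, and 2.33 to 8.33 toward RA, with a median of 3.07. The regions summed were called on these same libraries, so the ratios are a description. The run chr26_random:1086579-1140743 held 8 regions with a summed CPM of 1370, 1880 and 2340 in Area X, against 339, 1090 and 422 in RA, a ratio of 3.03. The run chr17:11042949-11097760 also held 8, with 678, 916 and 1040 in Area X and 195, 518 and 199 in RA, a ratio of 2.88. The run chr8_random:3132750-3158425 held 7, with 524, 617 and 719 in Area X and 164, 353 and 165 in RA, a ratio of 2.73. In all 3 the library labelled RA silent 2 lay below the Area X libraries and above the other RA libraries. The runs on chr26_random and chr8_random lie on sequence without a set place on a chromosome, and the order of regions there was not checked. Runs and neighbour pairs on such sequence may therefore not be neighbours in the genome. Between 61 and 62 Mb of chromosome 4, 21 of 52 regions were called toward Area X and 0 toward RA, against 10.3% and 9.5% over all regions. This window and the one on chromosome 10 were chosen after their values were seen, as extremes of 638 windows of 1 Mb with at least 20 regions, of which 100 held calls toward Area X only and 74 toward RA only.

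**Figure D4:**
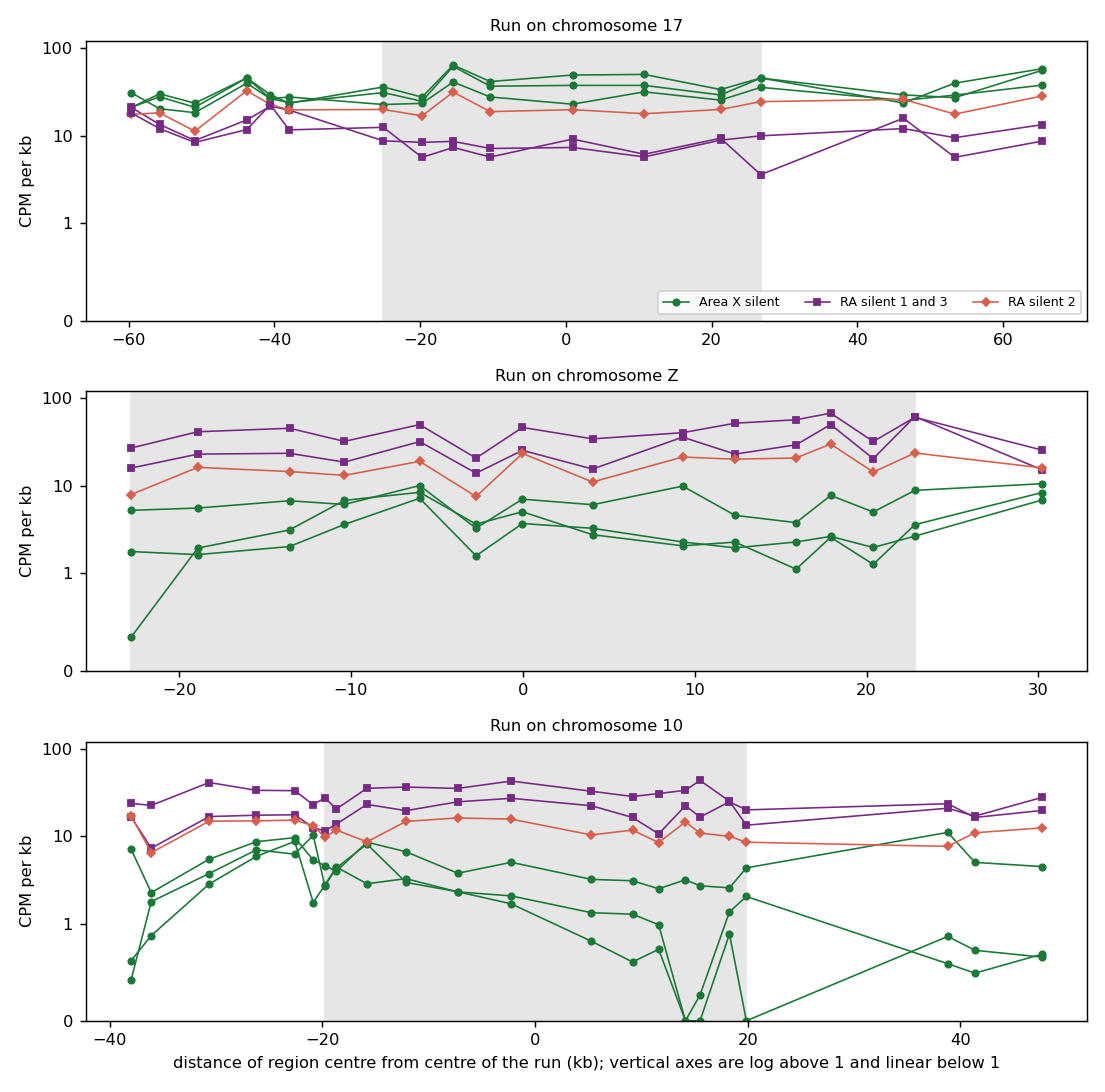
CPM per kb of region in each silent library along the longest placed run toward Area X (chromosome 17) and the 2 longest toward RA (chromosomes Z and 10), by distance of the region from the centre of the run in kb. The run is shaded and the vertical axes are logarithmic above 1 and linear below 1. The Area X libraries (green) lie highest within the run on chromosome 17 and lowest within the runs on chromosomes Z and 10, and Area X silent libraries 2 and 3 reach 0 at some narrow regions of the chromosome 10 run.

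Close neighbours could also go opposite ways. The 42 opposite pairs lay on 26 chromosomes or unplaced sequences, and the 2 given here were chosen after their values were seen. At chr15:13072768-13075086, CPM was 40.1, 26.8 and 23.7 in Area X and 90.8, 47.5 and 96.7 in RA (2.60-fold toward RA). At chr15:13078875-13080137, 3788 bp further on, CPM was 26.7, 50.0 and 57.7 in Area X and 6.01, 30.7 and 7.33 in RA (3.10-fold toward Area X). In this second region the library labelled RA silent 2 lay within the Area X range. At chr18:906215-907116, CPM was 23.3, 16.2 and 22.4 in Area X and 7.59, 8.84 and 6.32 in RA (2.73-fold toward Area X). At chr18:909546-912049, 2429 bp further on, it was 30.8, 19.9 and 21.1 in Area X and 81.0, 33.8 and 71.0 in RA (2.59-fold toward RA). Such pairs consist of called regions by definition, and the edgeR adjusted p of these 4 was 0.0295 to 0.042.

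Wide regions were called more often, and more often toward Area X. Among 1549 regions over 4000 bp, 32.2% were called toward Area X and 15.9% toward RA, against 10.3% and 9.5% over all regions. Among 11028 regions up to 500 bp the shares were 4.08% toward Area X and 5.16% toward RA. Without the library labelled RA silent 2 they were 56.9% and 19.6% for the wide regions and 13.3% and 12.1% for the narrow ones. All regions then gave 23.8% and 16.6%, so wide regions were near that background toward RA. These shares are given with TMM scaling. Relative to all regions, the median log2 fold change was 0.98 in regions over 4000 bp and -0.27 in regions up to 500 bp. With signal-dependent scaling these medians were 0.37 and 0.02, so the shift of narrow regions toward RA turned under that scaling. Level moved with width, at a median of 141 CPM in regions over 4000 bp and 4.83 CPM in regions up to 500 bp, and their parts were not separated. Among the 7191 regions with the highest mean CPM, 22.2% were called toward Area X and 9.78% toward RA, against 3.99% and 6.4% among the 7191 with the lowest. This lean of strong regions depended on the regions tested. With only regions of at least the median CPM tested and TMM recomputed on them, 1354 were called toward Area X and 2636 toward RA. Smaller folds passed the test at higher levels, so how often regions were called is not directly comparable between levels or widths.

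The same counts can be given as shares of reads, which restate the difference and are no separate support for it. Regions over 4000 bp took 26.9%, 29.3% and 30.7% of the reads in regions in Area X silent libraries 1 to 3, against 20.4%, 26.7% and 23.6% in RA silent libraries 1 to 3. The groups did not overlap, although Area X silent library 1 and the library labelled RA silent 2 were nearly alike. The shares averaged 29.0% ± 1.95 for Area X and 23.5% ± 3.15 for RA (SD of n = 3 libraries each, exact two-sided permutation p = 0.1, the smallest that 3 against 3 libraries allow, and 0.259 adjusted over 35 classes). Regions up to 500 bp took 5.66% ± 0.727 in Area X and 7.35% ± 0.954 in RA (exact permutation p = 0.2).

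Chromosomes differed in how often their regions were called each way, against 10.3% toward Area X and 9.5% toward RA over all regions. On chromosome 25, 20.5% of 112 regions were called toward RA and 6.25% toward Area X, and on chromosome 11, 16% of 737 toward RA and 5.56% toward Area X. Chromosomes 19 and 24 also leaned toward RA, with 14.8% and 14.6% of regions called that way. Chromosome 22 had 14.7% toward Area X and 8.19% toward RA, and chromosome 1 had 12.3% and 6.09%. Without the library labelled RA silent 2, where all regions gave 23.8% toward Area X and 16.6% toward RA, chromosome 22 was near that background with 26.3% and 15.5%. Chromosome 1 then had 31.7% and 11.5%, chromosome 25 had 7.14% and 30.4%, and chromosome 11 had 12.6% and 27.5%. The share of reads did not overlap between the nuclei for 9 of 30 chromosomes. Over all regions, CPM did not overlap in 21.5% with Area X higher and in 22.0% with RA higher. By chance alone, 3 against 3 libraries do not overlap with a probability of 0.1. The shares of one library add up to the whole, so chromosomes are not independent of each other. Chromosome 11 took 2.53%, 2.24% and 2.24% of the reads in Area X silent libraries 1 to 3, against 3.16%, 2.60% and 3.14% in RA silent libraries 1 to 3. Chromosome 13 took 3.52%, 3.41% and 3.48% in Area X, against 3.08%, 3.31% and 3.09% in RA. Chromosome Z took 3.47%, 3.62% and 3.44% in Area X, against 4.01%, 3.79% and 3.87% in RA. With 3 libraries a group the exact permutation test cannot go below 0.1 for any of these shares, and base composition was not examined.

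**Figure D5:**
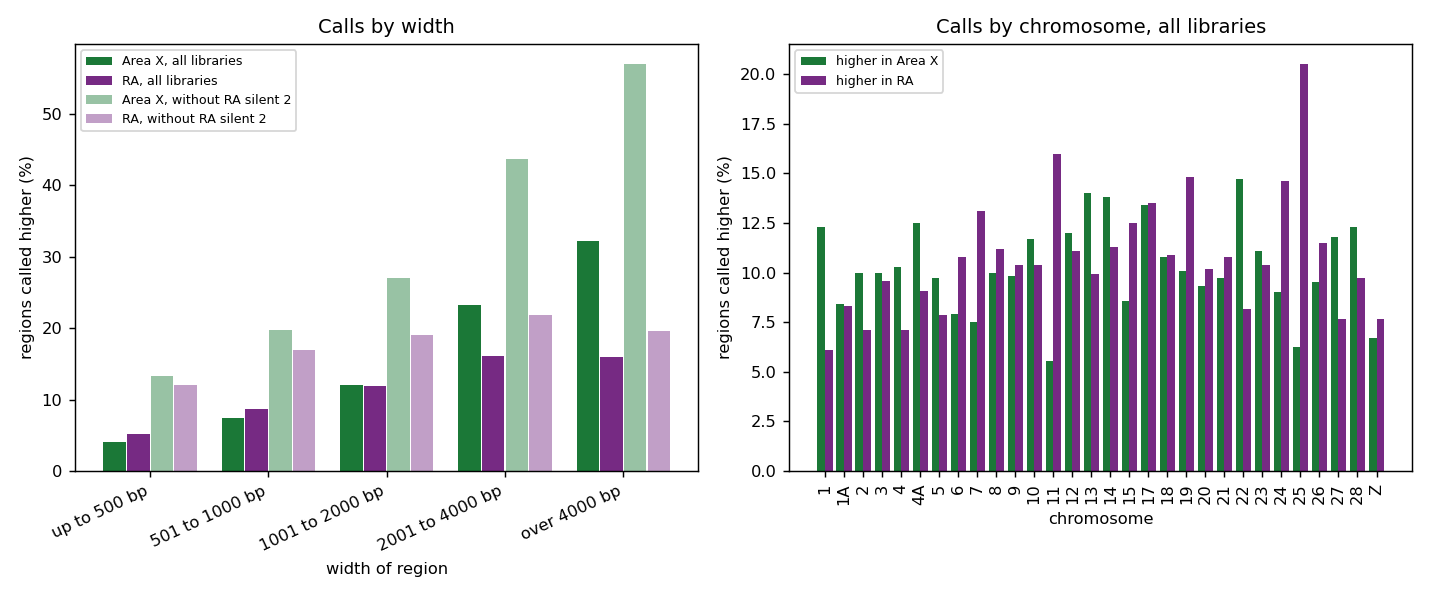
Percent of regions called toward Area X (green) and toward RA (purple), by width class on the left, with paler bars for the fit without the library labelled RA silent 2, and by chromosome on the right with all libraries. Calls toward Area X reach 32.2% in regions over 4000 bp, and calls toward RA reach 20.5% on chromosome 25, against 10.3% and 9.5% over all regions.

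The same contrast in singing birds, from the 4 Area X and 4 RA singing libraries, called 6635 regions (18.5%), 3728 toward Area X (10.4%) and 2907 toward RA (8.09%). It shares no library with the silent contrast but uses the same regions and the same fitted spread. Of the regions called in silent birds, 2022 of those toward Area X and 1856 of those toward RA were also called in singing birds, with 0 called in the opposite direction. The sign turned in 12 and 9. Median folds of the silent calls were 2.46 toward Area X and 2.22 toward RA in singing birds, lower than in the silent birds on which they were chosen.

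The loci highest in RA in silent birds were also higher in RA in singing birds. At chrZ:14136487-14137869, CPM in singing birds was 5.97, 9.48, 4.08 and 4.36 in Area X and 46.9, 40.1, 41.1 and 30.4 in RA. All RA libraries again stood above all Area X libraries, with a 6.75-fold difference (edgeR adjusted p = 0.0203). All 10 regions with the largest silent folds toward RA passed in singing birds, at 5.26 to 7.53-fold. The singing groups overlapped at chr10:16302595-16303973, with RA singing library 4 at 0.0 CPM against 2.18 to 5.82 in Area X. They also overlapped at chr10:16311607-16313186, with RA singing library 4 at 4.35 CPM against 1.83 to 5.37 in Area X. That library held 0.203 M reads in regions and a median of 3 per region, so both overlaps rest on very few reads. The singing groups did not overlap in the rest of the 10. Of the 10 toward Area X, 2 passed, at chr9:24383408-24385284 (4.39-fold) and chr20:4621828-4623402 (7.56-fold). At the chromosome 20 region, CPM in singing birds was 24.6, 35.2, 38.9 and 45.2 in Area X, against 1.23, 1.67, 9.08 and 13 in RA, without overlap. At chr1:79084329-79087208 it was 21.3, 47.9, 104 and 76.3 in Area X, against 3.53, 32.6, 17.3 and 21.7 in RA, with overlap (3.62-fold, adjusted p = 0.0517).

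The test of the difference itself, between the silent and the singing contrast, called 0 of 35954 regions (0.0%), and DESeq2 also called 0. In the edgeR test 211 regions had an unadjusted p under 0.05, far fewer than the 1 in 20 that chance gives without any difference. Regions are not independent of each other, so this count cannot show whether the test was too strict. The 0 calls do not show that the contrasts are equal. For the 10 largest folds toward RA the unadjusted p of this difference was 0.0586 to 0.396, and for the 10 toward Area X 0.0558 to 0.729. At chrZ:14136487-14137869 the log2 fold change in silent birds minus that in singing birds was -1.17, with a 95% interval of -2.45 to 0.10. Larger folds in silent birds were therefore not shown to differ from those in singing birds.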

How the data were processed

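The authors deposited 1 table of raw read counts for 35958 regions in 14 libraries. The submitters' processing notes list HTSeq 0.6.1, MACS2 2.1, bedtools and SAMtools 1.1 but give no roles. Aligner, build and region calling: not given in the sources used here. In the column names, minus was read as silent, plus as singing and X as Area X, on which each group rests, and the columns were taken as H3K27ac libraries. Whole-cell extracts were not analysed here. Depth was 0.203 to 10.6 M reads (M, 1e6) in regions; this is not sequencing depth. Starts are counted from 1.

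Counts were tested in R 4.3.3 with edgeR 4.0.16: filterByExpr (4 regions removed), TMM, 1 mean per group over 14 libraries, robust quasi-likelihood fit, Benjamini-Hochberg threshold 0.05. The spread was thus estimated with the singing libraries, which include the shallowest. limma 3.58.1 and DESeq2 1.42.0 served as alternatives, beside other scalings, filters, thresholds and libraries left out. The script was first tested on simulated data. In a chi-square comparison of counts, pairs of silent libraries of one group differed by 5.47 to 28.5 per degree of freedom and pairs of singing libraries by 2.25 to 33.1, the lowest with the shallow RA singing library 4. All were counted as separate, although 4 singing libraries per nucleus exceed the 3 pools that the labels give.

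Regions named were, in each direction, the 10 largest folds past the threshold with no overlap of CPM and at least the median CPM, the 3 with the smallest p, the 3 strongest and 3 widest without overlap, and the 3 longest runs; others are said to be chosen otherwise. The comparison, lists and alternatives were chosen with earlier results of these data known.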

Additional observations from a re-analysis of the deposited data

Results flagged for a closer look

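Among 64 groups of 4 singing libraries at the named regions, 2 had 1 library far from the other 3, where chance gives about 1 in 20, or 3.2. At chrUn:147755527-147756838, CPM in the RA singing libraries 1 to 4 was 6.00, 5.01, 6.81 and 21.7, the last standing apart. At chr18:1062812-1079458, it was 543, 507, 525 and 230, the last again standing apart. Both values come from RA singing library 4, the shallowest library, with 0.203 M reads (M, 1e6) in regions and a median of 3 per region. Both lay toward the Area X singing libraries, which read 13.4 to 31.8 CPM at the first region and 239 to 279 CPM at the second. The silent groups hold 3 libraries each and were not tested in this way.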

How the results depend on the processing

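Against 7135 calls with all libraries (3721 toward Area X and 3414 toward RA), the silent libraries alone gave 0, 0 and 0 in that order. DESeq2 size factors gave 4080, with 1679 toward Area X, total-read scaling 1911 toward Area X, and the median filter 3990, with 1354 toward Area X. The DESeq2 test gave 5278 toward RA, and limma-voom with quality weights 22301, 11050 and 11251. A threshold of 0.01 left 8, 0 and 8, and one of 0.1 gave 14619, 7853 and 6766. Leaving out 1 library gave 0 to 14521 in all, 0 to 8544 toward Area X and 0 to 5977 toward RA. None of these settings, nor the replicate block below, called a region of the 7135 in the opposite direction. All of them reuse the same libraries and some call few or no regions, so this is no independent support. Same-numbered Area X and RA silent libraries deviated together at r = 0.591, 0.463 and -0.188, and differently numbered ones at -0.706 to 0.527. With 3 libraries per group, these values cannot decide whether equal numbers mean the same birds. The numbers were not taken as pairs in the main fit. With the library number as replicate block, 15243 regions passed (8761 and 6482). Without the library labelled RA silent 2, settings chosen after seeing the data gave 7010 to 10132 toward Area X and 6139 to 8780 toward RA. The difference between behaviours stayed at 0 with 2 other scalings, with DESeq2 and with each silent library left out. Runs toward Area X numbered 26, but 0 with silent libraries alone, 7 with DESeq2 size factors, 9 with total reads, 5 with signal-dependent scaling, 13 with gaps up to 5000 bp, and 0 to 162 with 1 library left out. Runs toward RA numbered 24, but 0, 13 and 53 under the first 3 of these, and 0 to 82 with 1 library left out. The median log2 fold change of regions up to 500 bp relative to all turned to 0.0218, and that at chr18:1502940-1533790 to -0.0724, with signal-dependent scaling. The read share of unplaced sequence, -0.0191 points for Area X minus RA, turned to 0.0679 with Area X silent library 2 left out, 0.0286 with Area X silent library 3 and 0.121 with RA silent library 1, over a range from -0.154. Area X minus RA ran from 3.82 to 6.98 points for regions over 4000 bp and from 1.6 to 3.09 for chromosomes 1, 1A, 2 to 5 and Z. Of the 32 named regions, all 32 fell short with the silent libraries alone or when Area X silent library 2 or 3 was left out, 26 without the first RA silent library, 29 without the third and none without the library labelled RA silent 2. The cause was not tested.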

Other observations

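The regions with the smallest unadjusted p for the difference between behaviours did not pass adjustment (adjusted p = 1.0, edgeR quasi-likelihood test) and were chosen after their values were seen. At chr4:1194200-1195164, CPM in silent birds was 22.3, 21.0 and 13.3 in Area X and 24.4, 18.8 and 23.2 in RA, with overlap. In singing birds it was 43.4, 53.9, 55.8 and 49.4 in Area X and 22.9, 20.9, 19.3 and 30.4 in RA, without overlap. At chr1:1185428-1186353, CPM in silent birds was 12.6, 18.2 and 25.3 in Area X and 2.37, 4.64 and 2.41 in RA, without overlap. In singing birds it was 5.22, 10.4, 15.5 and 15.5 in Area X and 6.35, 14.2, 9.08 and 4.35 in RA, with overlap.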
